A study of Mus musculus with 15 samples.

Results

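Genes for the matrix proteases of the mouse heart, and for the inhibitors that restrain them, were measured as RNA after 5 months of methamphetamine (meth). The set holds every gene that the probe accessions map to a symbol that starts with Mmp, Timp, Adamts, Adamtsl or Adam and goes on with a digit. It has 74 genes, read by 111 probes, out of 18350 genes with a symbol. A gene was tested when its probe gave a signal well above background, by the flag of the scanner software, on at least 3 of the 15 arrays. This left 49 of the 74 genes and 14217 of the 18350. By the brightest probe of each gene, 37 of the 74 were well above background on all 15 arrays, 6 on 1 or 2 arrays, and 19 on no array.

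RNA came from the heart tissue of male and female C57BL/6 mice, 1 mouse to an array. Meth hydrochloride in phosphate buffered saline (PBS) was injected into the peritoneum each week and raised to a final dose of 40 mg/kg, and controls had PBS alone by the same route and schedule. The arrays cover 4 male meth, 4 male PBS, 4 female meth and 3 female PBS hearts. Males came from 2 separate trials, with 2 meth and 2 PBS hearts in each, and females from 1 trial by their titles. The model has limits: the drug was injected by a fixed schedule, the hearts were taken at a single time, the labels give no age, and heart RNA mixes every cell type. A lower signal may come from fewer cells of a type or from less RNA in each cell, and these cannot be told apart here.

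The Mmp enzymes are zinc proteases, some secreted and some held at the cell surface, that cut collagens and other proteins of the extracellular matrix, and the Timp proteins bind and block them. Adamts enzymes are secreted; some cut large proteoglycans such as versican and aggrecan, others trim procollagen so that it can form fibres, and the Adamtsl proteins share their matrix-binding parts without the protease. Adam proteins sit in the cell membrane, and many release growth factors, cytokines and receptors from the cell surface, while others serve in sperm and egg. In the heart these enzymes come largely from fibroblasts, vessel cells and immune cells, and matrix turnover is a known feature of hearts that enlarge or scar.

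Depth on an array is its signal over background. Of all probes, 61.4% to 71.4% were well above background, no spot was saturated, and precision is set by how few arrays there are. Values are normalized log2 signals, which are the log2 of the background-subtracted signal of the probe after the 75th percentile of its array is set to 0. They are given for males in the order trial 1 replicate 1, trial 1 replicate 2, trial 2 replicate 1, trial 2 replicate 2, and for females in the order of the replicate numbers. A gene is given by its brightest probe, and no probe is compared in level with another. The arrays lay on 4 slides. Slides 1 and 2 each held a male meth, a male PBS, a female meth and a female PBS heart, slide 3 held the 4 male hearts of trial 2, and slide 4 held female meth replicates 3 and 4 and female PBS replicate 3. Slide 4 stood apart. Its spike-in controls averaged -1.24 to -1.18, against 1.34 to 1.84 on the other 12 arrays, and its 75th percentile lay at signals of 461 to 618, against 323 to 424. Each female result past the threshold is therefore given with and without slide 4, an alternative chosen after seeing the data.

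The tissue label was checked against 9 genes of heart muscle cells, among which Myl2 had the highest signal in every group. All 9 were well above background in each group. With the 75th percentile of each array set to 1, their summed signal was 3982 to 4538 in male meth hearts, 4083 to 4598 in male PBS hearts, 3443 to 4023 in female meth hearts and 3192 to 4055 in female PBS hearts. The ranges overlapped within each sex, and 0 of the 9 passed the limma threshold in either sex (1 in each sex at an unadjusted p under 0.05).

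The first question was how many of the tested genes differed between meth and PBS hearts in each sex. The threshold was an adjusted p of 0.05, corrected over all 28358 probes tested. In male hearts 3 of the 49 genes passed it, 2 higher with meth (Timp3 and Adam8) and 1 lower (Adamts15), where 1.33% of all 14217 tested genes passed. In female hearts 3 of 49 passed, 1 higher (Timp3) and 2 lower (Adam19 and Adamts4), where 0.443% of all genes passed. At an unadjusted p under 0.05 the counts were 13 of 49 in males, with 13.1% of all genes, and 11 of 49 in females, with 7.81% of all genes. As shares, these were 26.5% and 22.4% of the tested members. In the male meth hearts a sum of 12 airway genes was also higher than in male PBS hearts, at 33.6 to 163 against 1.97 to 2.72, and so was a sum of 12 cartilage genes, at 6.30 to 24.0 against 3.71 to 4.40. In the female meth hearts a sum of 5 endothelial genes was lower than in female PBS hearts, at 23.3 to 25.5 against 26.9 to 29.8. In both sexes 5 of 5 fat cell markers were positive (medians 0.75 and 1.05), 5 of 5 neutrophil markers negative (medians -0.82 and -0.40), and 7 of 7 macrophage markers were positive (medians 0.17 and 0.08), none past the threshold. The summed neutrophil signals overlapped between meth and PBS in each sex, and in males they were lower with meth in trial 2 only. The members were chosen with earlier results known, so the difference from the share over all genes was given no test.

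These counts rested on single arrays. The male count was 1 without male PBS trial 1 replicate 1, male PBS trial 1 replicate 2, female PBS replicate 1, male meth trial 2 replicate 1, male PBS trial 2 replicate 1 or male PBS trial 2 replicate 2. It stayed between 2 and 4 without any other array. The female count was 0 without female meth replicate 4, female PBS replicate 1 or female PBS replicate 2, 1 without female meth replicate 3, and 2 or 3 otherwise. Without slide 4 it was 0, where 12 of all genes passed, with 3 in males. In the female hearts replicate numbers 1 to 3 pair a meth with a PBS array of the same slide. With the pairs as a block the female count was 1 (Timp3), where 21 of all genes passed. That fit blocked the numbers of both sexes at once. Female meth replicate 4 has no partner and adds nothing to the female fold changes there, which equal those without that array. With the slide as a block the counts were 5 in males and 3 in females, while those over all 14217 genes rose from 189 to 312 and from 63 to 123. The choice of input and background correction mattered too. With normexp, run with an offset of 50 on the median spot signal and median local background in place of the processed signal, 0 members passed in either sex, although 10 in males and 9 in females had an unadjusted p under 0.05. Normexp also left only 36 and 17 of all genes past the threshold. Plain t-tests after Benjamini-Hochberg correction passed 0 members in either sex, and of all genes only 10 in males by the unpaired test and 0 otherwise, so they say little about these members.

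The middle of the set moved little. The median log2 fold change of the 49 genes was 0.06 in males and -0.07 in females, where the medians of all tested genes were -0.02 and 0.03. In males 28 of the 49 values were positive and 21 negative, from -0.76 to 1.15, and in females 22 were positive and 27 negative, from -2.05 to 0.88. The female median changed sign with normexp, to 0.08, without female meth replicate 2, to 0.04, and without female PBS replicate 3, also to 0.04. It was 0.00 over the 37 genes well above background on all arrays, -0.01 after the shift by the array median and -0.02 without slide 4. The male median was 0.00 with normexp, and over all 74 genes, with no filter, it was -0.02. An absolute log2 fold change above 0.5 was reached by 7 genes in males and 9 in females. The male and female comparisons share no array, and 31 of the 49 genes (63.3%) had the same sign in both sexes, against 7289 of all 14217 (51.3%). Across the 49 genes the correlation of the male and female fold changes was 0.53, and across all genes 0.27. These are descriptions, since genes are not independent replicates.

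**Figure D1:**
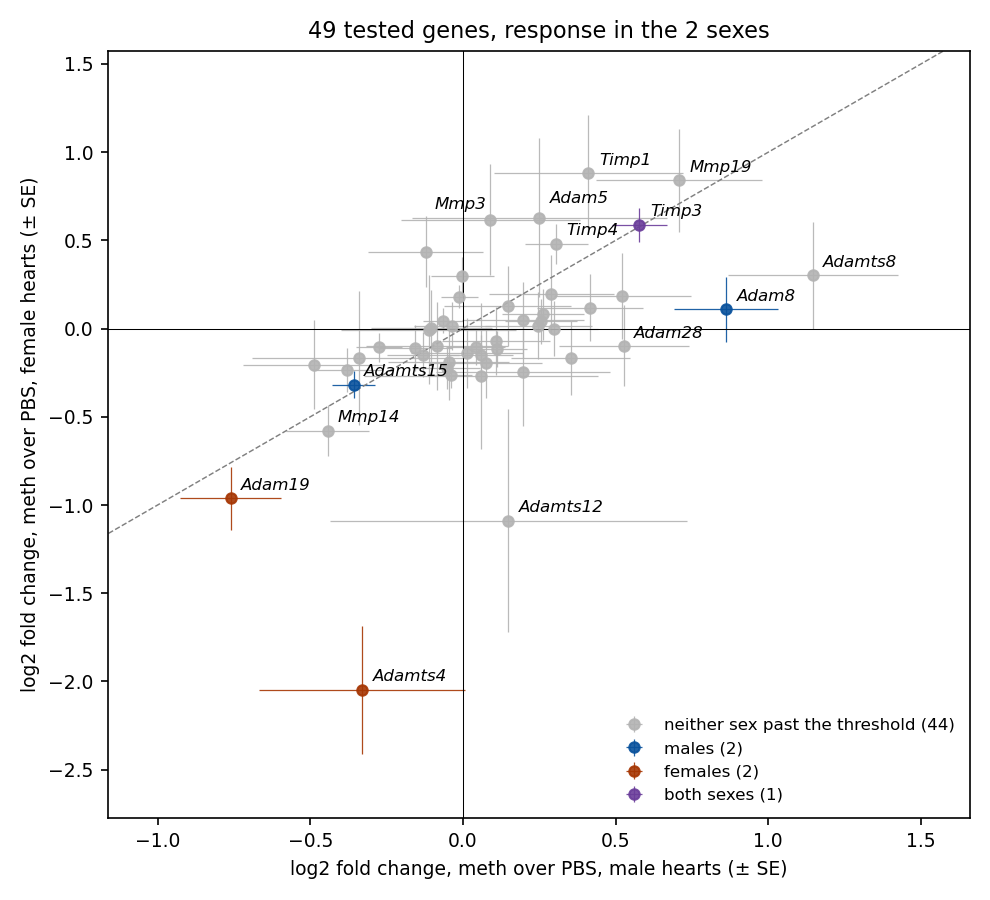
Log2 fold change of meth over PBS in female hearts (vertical axis) against male hearts (horizontal axis) for the 49 tested genes, each point a gene with its standard error, coloured by the sex in which it passed the adjusted threshold, with a dashed line of equal change. Timp3 lies near the line at 0.58 and 0.59, Adam8 lies to the right at 0.86 and 0.11, and Adamts4 lies lowest, where no female meth array was well above background and the female fold is at least 2.17.

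Promoters were set beside the members that passed the threshold in a comparison, since they are the ones the results turn on. Of the 74 genes 45 had a RefSeq promoter entry, as did 29 of the 49 tested, in a table of 27025 genes. The 250 bases before the start of the gene were searched on both strands for the AP-1 motif TGANTCA, a motif bound by factors known to drive many Mmp genes, and, added later, for the GC box GGGCGG and the E-box CACGTG. No motif contains another. The AP-1 letters occurred in 3 of the 29 promoters (10.3%) and in 6.87% of all 27025, the GC box in 18 of 29 (62.1%) and 32.9% of all, and the E-box in 1 of 29 (3.45%, Adam19) and 6.05% of all. A match is a description of letters and not of a working site. The 4 sequences below are from RefSeq on build GRCm38.p6, in lower case from 5′ to 3′ on the strand of the gene, with matched motifs in capitals (CCGCCC is the GC box on the opposite strand). Timp3 lies at chr10:86300162-86300411 on the + strand, with 1 GC box and 65.6% G and C. Adam19 lies at chr11:46054252-46054501 on the + strand, with 1 E-box and 50% G and C. Adam8 lies at chr7:139992563-139992812 on the - strand, with 1 GC box and 52.8% G and C. Adamtsl3 lies at chr7:82335444-82335693 on the + strand, with 4 GC boxes and 80% G and C. Adamts15 and Adamts4 had no entry.
Timp3: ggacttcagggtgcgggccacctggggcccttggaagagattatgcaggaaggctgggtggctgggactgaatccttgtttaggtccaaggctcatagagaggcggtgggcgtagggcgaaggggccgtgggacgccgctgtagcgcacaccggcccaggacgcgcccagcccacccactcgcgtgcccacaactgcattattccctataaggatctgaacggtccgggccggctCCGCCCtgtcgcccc
Adam19: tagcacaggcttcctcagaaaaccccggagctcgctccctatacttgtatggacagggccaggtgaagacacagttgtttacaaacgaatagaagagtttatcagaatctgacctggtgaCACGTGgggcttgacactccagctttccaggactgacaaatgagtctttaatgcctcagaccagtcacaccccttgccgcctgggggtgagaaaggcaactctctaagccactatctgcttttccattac
Adam8: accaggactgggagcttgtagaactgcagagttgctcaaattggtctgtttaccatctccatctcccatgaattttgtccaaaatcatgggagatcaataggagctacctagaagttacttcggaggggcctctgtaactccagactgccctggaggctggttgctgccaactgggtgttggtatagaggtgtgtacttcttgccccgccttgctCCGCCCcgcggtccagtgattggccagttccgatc
Adamtsl3: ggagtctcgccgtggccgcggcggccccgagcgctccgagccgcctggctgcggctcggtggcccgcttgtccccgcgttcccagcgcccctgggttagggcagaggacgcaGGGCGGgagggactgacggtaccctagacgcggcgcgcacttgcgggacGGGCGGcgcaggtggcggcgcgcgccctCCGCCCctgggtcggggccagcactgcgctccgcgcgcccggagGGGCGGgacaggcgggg

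The inhibitors come first. Timp3 encodes the Timp that stays bound to the matrix and blocks Adam and Adamts enzymes as well as Mmp enzymes. Its normalized log2 signal was 4.63, 4.65, 4.75 and 4.68 in male meth hearts and 4.14, 4.00, 4.24 and 4.01 in male PBS hearts. In female meth hearts it was 4.78, 4.56, 4.76 and 4.88, and in female PBS hearts 4.14, 4.00 and 4.33. Every meth heart lay above every PBS heart of its sex. Timp3 rose by a log2 fold change of 0.58 (SE 0.09, 1.49-fold, adjusted p 0.00924) in males and 0.59 (SE 0.10, 1.50-fold, adjusted p 0.0206) in females. The exact two-sided permutation p was 0.0286 in each sex, the smallest that 4 against 4 or 4 against 3 arrays allow. The response differed between the sexes by -0.01 (adjusted p 0.989). Males and females given PBS differed by -0.09 (adjusted p 0.717).

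The rise of Timp3 was present on each slide: 0.48, 0.65 and 0.59 in males on slides 1, 2 and 3, and 0.64, 0.56 and 0.49 in females on slides 1, 2 and 4. With the slide as a block the adjusted p was 0.00351 in males, and the female value was 0.56 (adjusted p 0.0105). With the female pairs as a block it was 0.54 (adjusted p 0.0463). The male result passed without any 1 array, with an adjusted p of 0.00764 to 0.0465. In females Timp3 missed the threshold without female meth replicate 4 (0.54, adjusted p 0.0535), female PBS replicate 1 (0.58, 0.0855) or female PBS replicate 2 (0.51, 0.113), and without slide 4 (0.60, 0.0792). The female call was also lost with normexp, with quantile scaling and with each sex fitted alone. Over all limma alternatives the adjusted p ran from 0.00192 to 0.142 in males and from 0.00576 to 0.491 in females. The fold change stayed positive throughout, from 0.53 to 0.63 in males and from 0.48 to 0.67 in females.

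Timp1 encodes the inhibitor that injured tissue is best known for making. Its values were 0.90, 0.73, 1.77 and 0.66 in male meth hearts and 0.65, 0.44, 0.52 and 0.82 in male PBS hearts. In females they were 2.15, 0.88, 1.20 and 2.31 with meth and 0.56, 0.77 and 0.94 with PBS. Single meth hearts were high (male trial 2 replicate 1, female replicates 1 and 4), and the groups overlapped in both sexes. The fold changes of 0.41 in males and 0.88 in females (SE 0.31 and 0.33, adjusted p 0.635 and 0.315) did not pass, and without slide 4 the female value was 0.85. With single arrays left out Timp1 ran from 0.16 to 0.60 in males and from 0.65 to 1.13 in females. Its other tested probe gave 0.58 and 1.01, also short of the threshold.

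Timp4, the Timp most abundant in heart muscle, read 1.44, 1.30, 1.09 and 1.36 in male meth hearts and 0.82, 1.02, 1.12 and 1.01 in male PBS hearts. Female values were 1.51, 1.73, 1.64 and 1.44 with meth and 0.97, 1.26 and 1.06 with PBS. The female groups did not overlap, while in males 1 meth heart lay below the highest PBS heart. Timp4 was higher with meth by 0.31 in males and by 0.48 in females (SE 0.10 and 0.11, adjusted p 0.229 and 0.0768), and neither passed. Without slide 4 the female value was 0.50 (adjusted p 0.285). With the slide as a random block the female value did pass (adjusted p 0.0342, over a range of 0.0342 to 0.297).

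Timp2, which also helps Mmp14 activate the gelatinase Mmp2, read 5.77, 5.79, 5.89 and 5.61 in male meth hearts and 5.71, 5.73, 5.56 and 5.63 in male PBS hearts. Female values were 5.88, 5.84, 5.22 and 5.09 with meth and 5.69, 5.79 and 5.25 with PBS. The 3 low female values are the 3 arrays of slide 4. The fold changes were 0.11 in males and -0.07 in females (adjusted p 0.86 and 0.952), and without slide 4 the female value was 0.12. Over the 4 Timp genes the median was 0.36 in males, with 4 positive, and 0.53 in females, with 3 positive, and under each scaling tried the counts of positive values were the same.

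**Figure D2:**
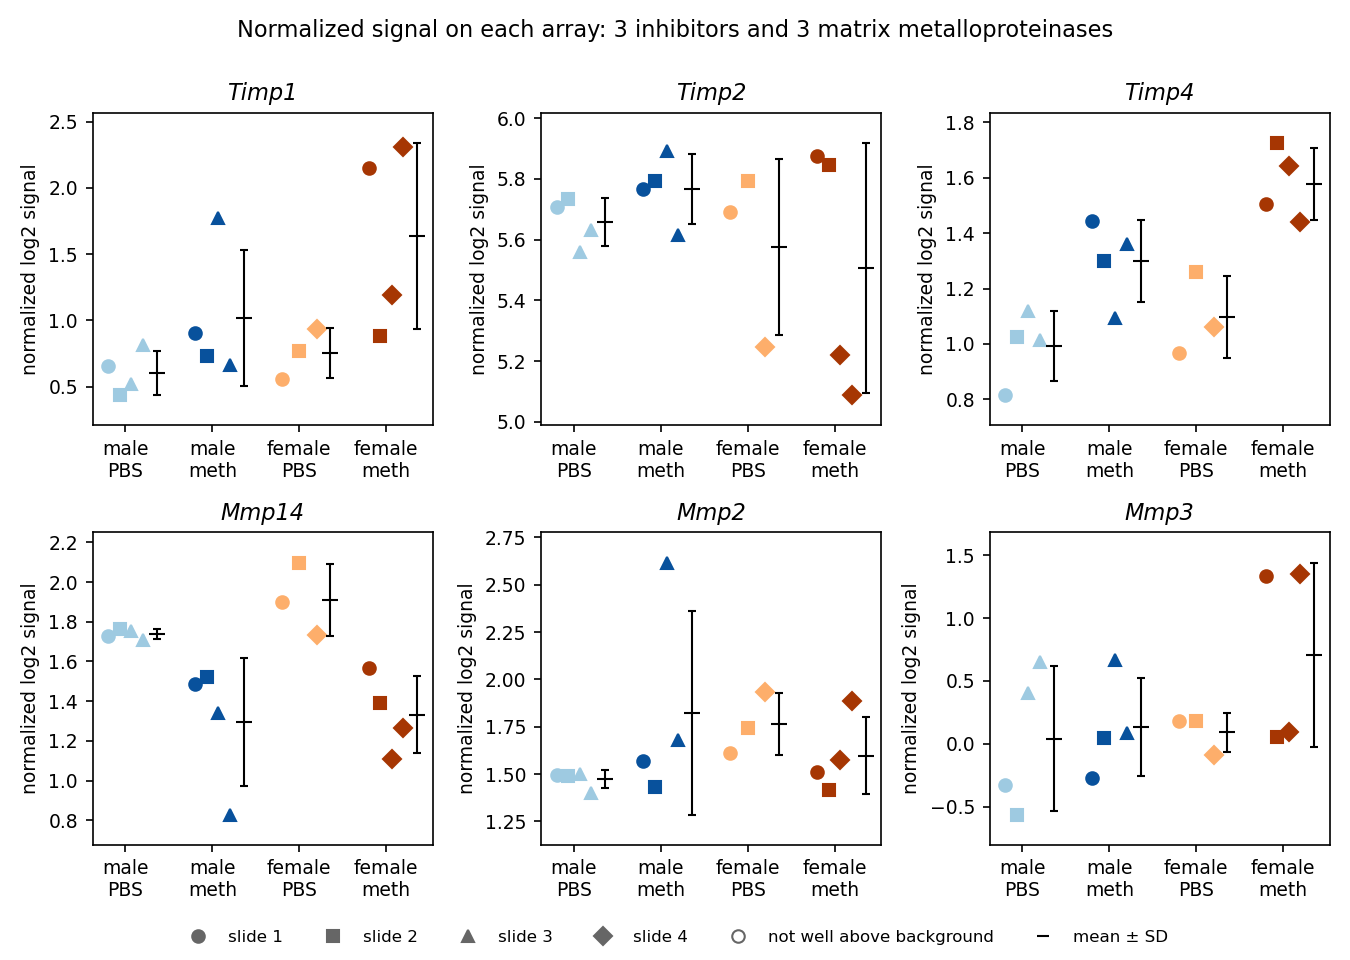
Normalized log2 signal on each array (points, shaped by slide; vertical axis) in the 4 groups for Timp1, Timp2, Timp4, Mmp14, Mmp2 and Mmp3, with the mean ± SD as black bars. Mmp14 meth hearts lie below the PBS hearts of their sex (fold changes -0.44 and -0.58), Timp1 and Mmp3 are high in female meth replicates 1 and 4, and Timp2 is low on slide 4.

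Among the secreted Mmp genes 6 of 14 on the array were tested, and 0 passed in either sex by limma (1 in males and 2 in females at an unadjusted p under 0.05). Mmp2, a gelatinase made by fibroblasts, read 1.57, 1.43, 2.62 and 1.68 in male meth hearts and 1.50, 1.49, 1.50 and 1.40 in male PBS hearts. Female hearts read 1.51, 1.41, 1.58 and 1.89 with meth and 1.61, 1.74 and 1.94 with PBS. The male meth heart of trial 2 replicate 1 stood alone, and the other values overlapped. Its fold change was 0.35 in males and -0.17 in females (adjusted p 0.489 and 0.867), and 0.10 in males without that heart. Mmp9, the gelatinase of neutrophils and macrophages, ranged from -3.07 to -2.25 in male meth hearts and from -2.86 to -2.38 in male PBS hearts. In females it ranged from -2.68 to -2.25 with meth and from -2.59 to -2.01 with PBS. The groups overlapped, and the fold changes were -0.05 and -0.19 (adjusted p 0.954 and 0.843). A second probe of Mmp9, well above background on 14 arrays, gave -0.59 in males and -0.53 in females. It did not pass either (adjusted p 0.394 and 0.568).

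Mmp19, which cuts basement membrane proteins, was near background. It was well above background on 4 of 4 male meth arrays, 0 of 4 male PBS arrays, 3 of 4 female meth arrays and 1 of 3 female PBS arrays. Where no array of a group was well above background, each of its arrays was set to the larger of its own signal and the lowest signal that the software called well above background there, which makes the fold a bound. Mmp19 was at least 1.24-fold higher in male meth than in male PBS hearts, with an adjusted p of 0.287. In females the fold change was 0.84 (adjusted p 0.264). Mmp3, stromelysin, read 1.34, 0.05, 0.09 and 1.35 in female meth hearts and 0.18, 0.18 and -0.09 in female PBS hearts, with the same female replicates 1 and 4 high as for Timp1. Its fold change was 0.62 in females and 0.09 in males (adjusted p 0.516 and 0.936). The collagenase Mmp13 had -0.49 in males and -0.20 in females (adjusted p 0.411 and 0.861). The median of the 6 tested genes was 0.03 in males and -0.18 in females, the former -0.01 after the shift by the array median. The 8 secreted Mmp genes on the array but below the filter were Mmp1a, Mmp7, Mmp8, Mmp10, Mmp12, Mmp20, Mmp21 and Mmp28.

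Among the Mmp genes held at the membrane 6 of 7 were tested, and 0 passed by limma (1 in each sex at an unadjusted p under 0.05). That 1 was Mmp14, the collagenase on the surface of fibroblasts that also activates Mmp2. It read 1.49, 1.52, 1.34 and 0.83 in male meth hearts and 1.73, 1.76, 1.75 and 1.71 in male PBS hearts. In females it read 1.57, 1.39, 1.11 and 1.26 with meth and 1.90, 2.10 and 1.73 with PBS. Each meth heart lay below each PBS heart of its sex, with the lowest value in male trial 2 replicate 2. The fold change was -0.44 in males and -0.58 in females (SE 0.14 and 0.15, adjusted p 0.181 and 0.101), short of the threshold, with an exact permutation p of 0.0286 in each. Without slide 4 the female value was -0.52 (adjusted p 0.336). Within slides it was -0.24, -0.24 and -0.65 in males and -0.33, -0.71 and -0.55 in females. A second probe of Mmp14 gave -0.28 in males and -0.61 in females. The family's median was -0.12 in males, with 5 of 6 negative under each scaling, and -0.08 in females, which became 0.02 with normexp.

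The Adamts enzymes that cut proteoglycans follow, with 6 of 7 tested. Adamts15 encodes an enzyme that cuts versican and aggrecan. It read -0.19, 0.05, 0.09 and 0.01 in male meth hearts and 0.17, 0.29, 0.46 and 0.46 in male PBS hearts. Female hearts read -0.21, -0.41, -0.32 and -0.25 with meth and 0.04, 0.02 and -0.01 with PBS. In both sexes all 4 meth hearts lay below every PBS heart, though by a small distance in males, and the female PBS hearts lay close together. Adamts15 fell by 0.36 on the log2 scale in males (SE 0.07, adjusted p 0.0343). In females the fold change of -0.32 (SE 0.08, adjusted p 0.0872) did not pass, and the difference between the sexes of -0.04 (adjusted p 0.942) did not either. The exact permutation p was 0.0286 in each sex.

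Within slides Adamts15 gave -0.36, -0.24 and -0.41 in males and -0.25, -0.43 and -0.28 in females. A block for the slide gave a male adjusted p of 0.0338. The male call for Adamts15 was lost without male meth trial 1 replicate 1 (-0.32, adjusted p 0.0983), male PBS trial 1 replicate 1 (0.0636), male PBS trial 1 replicate 2 (0.112), female PBS replicate 1 (0.0534), male meth trial 2 replicate 1 (0.0833), male meth trial 2 replicate 2 (0.104), male PBS trial 2 replicate 1 (0.12), male PBS trial 2 replicate 2 (0.119) or slide 4 (0.0517). The male fold change stayed between -0.42 and -0.30 in every alternative, with an adjusted p of 0.0167 to 0.436. Without slide 4 the female value of Adamts15 was -0.34 (adjusted p 0.27). The female adjusted p ran from 0.0465, with the slide as a random block, to 0.623.

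Adamts4 encodes an aggrecanase that inflamed tissue makes. It read -5.93, -7.14, -4.93 and -4.77 in male meth hearts and -5.40, -5.84, -4.83 and -5.38 in male PBS hearts. In females it read -5.70, -6.89, -6.83 and -6.17 with meth and -4.60, -4.19 and -4.25 with PBS. The signal was near background: 2 of 4 male meth, 1 of 4 male PBS, 0 of 4 female meth and 3 of 3 female PBS arrays were well above it, so 3 of the 6 arrays that passed the gene through the filter were female PBS. The female groups did not overlap, and the male groups did. Adamts4 was at least 2.17-fold lower in female meth than in female PBS hearts, and the fitted fold change, without the bound, was -2.05 (SE 0.36, adjusted p 0.0285, exact permutation p 0.0286). In males it was -0.33 (SE 0.34, adjusted p 0.747). The difference between the sexes was 1.72 (SE 0.50), with an adjusted p of 0.384, short of the threshold.

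Since no female meth array was well above background for Adamts4, its size of change within a slide is not given. With the slide as a block its adjusted p in females was 0.0243, and with the female pairs as a block it no longer passed (adjusted p 0.0912). The call was also lost without female meth replicate 2 (adjusted p 0.0628), replicate 3 (0.0668) or replicate 4 (0.0564), without female PBS replicate 1 (0.0849), replicate 2 (0.138) or replicate 3 (0.0671), and without slide 4 (adjusted p 0.241). Adamts4 missed the threshold in females too with no trial term and with the trial from the source name. The same held with no filter and with each sex fitted alone. With normexp the Adamts4 value shrank to -0.11 (adjusted p 0.963), the upper end of a range that began at 0.0104.

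Adamts8, an enzyme with reported action against vessel growth, had the largest male fold change of the tested set. It read -2.79, -1.72, -1.86 and -2.95 in male meth hearts and -3.72, -4.09, -2.96 and -3.12 in male PBS hearts. Female hearts read -3.27, -3.27, -3.11 and -3.46 with meth and -3.72, -3.60 and -3.42 with PBS. The male groups all but touched, and the female groups overlapped. The male fold change was 1.15 (SE 0.28, adjusted p 0.0839) and the female one 0.30 (adjusted p 0.814), with a difference of 0.84 (adjusted p 0.602). None of these passed. Without male meth trial 2 replicate 2 the male value did pass (1.46, adjusted p 0.0151, over a range of 0.0151 to 0.727). A second probe of Adamts8 did not pass either (adjusted p 0.111 in males).

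Adamts5, the main aggrecanase of mouse cartilage, read 1.32, 1.41, 0.97 and 0.98 in male meth hearts and 1.75, 1.58, 1.48 and 1.39 in male PBS hearts, with a fold change of -0.38 (adjusted p 0.178). This value passed with the slide as a block (adjusted p 0.0478, the lowest of a range that reached 0.869). In females the Adamts5 fold change was -0.23 (adjusted p 0.542). Adamts1, which cuts versican and blocks vessel growth, had 0.00 in males and 0.30 in females (adjusted p 0.997 and 0.313), and Adamts9 had -0.16 and -0.11 (adjusted p 0.643 and 0.853). The median of the 6 genes was -0.24 in males and -0.17 in females, negative under each scaling tried.

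Of the enzymes that trim procollagen all 3 were tested, and 0 passed by limma (1 in males and 0 in females at an unadjusted p under 0.05). Adamts2, the chief procollagen N-proteinase of skin, read 2.93, 3.01, 3.75 and 2.91 in male meth hearts and 2.92, 2.78, 2.57 and 2.66 in male PBS hearts, with trial 2 replicate 1 alone above the rest. Its fold change was 0.42 in males and 0.12 in females (adjusted p 0.333 and 0.899), and 0.19 in males without that heart. The median of the 3 genes was 0.15 in males and 0.12 in females, positive under each scaling. Of the remaining Adamts genes 4 of 7 were tested and 0 passed (0 in either sex at an unadjusted p under 0.05). Adamts12 had the second largest female value of the set, -1.09 with an SE of 0.63 (adjusted p 0.592), on 1 of 4 meth and 2 of 3 PBS arrays well above background. The median of these 4 genes was 0.08 in males and -0.07 in females, the latter 0.03 with normexp.

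The Adamtsl genes encode proteins of the microfibrils around cells. None of the 4 tested passed between meth and PBS by limma (1 in males and 0 in females at an unadjusted p under 0.05, Adamtsl2 with 0.52 in males and an adjusted p of 0.354). Their median was 0.28 in males and 0.13 in females, though with normexp 2 of the 4 male values were negative. With single arrays left out the male Adamtsl2 value ran from 0.20 to 0.69. The next comparison was between males and females given PBS, for the difference between the sexes without the drug. All females carry trial 1 in the fit, so its values compare the sexes at trial 1. They are not plain differences of the group means. In that comparison 1 of the 49 tested genes passed, Adamtsl3, where 0.556% of all genes passed, and 8 of 49 had an unadjusted p under 0.05, where 15.3% of all genes did. This share, 16.3%, is close to the background and is no result about the set. The largest fitted difference was that of Adamts4, at -1.565 (adjusted p 0.111), and its male PBS hearts lay below the female ones without overlap. Only 1 of 4 male PBS arrays was well above background for Adamts4, and over the limma alternatives its value ran from -1.87 to -0.08. Adamts12 did not pass either (adjusted p 0.37), and with 0 of 4 male PBS arrays well above background its fold is not given. The median over the 49 was -0.10 (males minus females), with 14 positive and 35 negative, beside 0.01 over all genes. Without the trial term these medians were -0.06 and -0.0023. The shift by the array median moved the median of all genes to 0.12 and that of the 49 to 0.01.

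Adamtsl3 read -3.03, -3.16, -3.19 and -3.06 in male PBS hearts and -2.36, -2.33 and -2.43 in female PBS hearts. With meth it read -3.22, -3.27, -2.85 and -2.94 in males and -2.47, -2.68, -2.47 and -2.29 in females. Every male heart lay below every female heart, whatever the treatment. Adamtsl3 was lower in male than in female PBS hearts by a log2 fold change of -0.81 (SE 0.11, 1.76-fold, adjusted p 0.00833, exact permutation p 0.0286). Within slides the difference was -0.67 on slide 1 and -0.83 on slide 2, and slides 3 and 4 held 1 sex each. With the slide as a block it was -0.79 (adjusted p 0.0177), and without slide 4 it was -0.84 (adjusted p 0.0313). It passed without any 1 array and in 26 of 27 limma alternatives, with adjusted p-values from 0.00449 to 0.699. The exception was normexp (-0.34, adjusted p 0.699). Meth moved Adamtsl3 by 0.04 in males and -0.10 in females (adjusted p 0.904 and 0.812), and with normexp these signs were the reverse, -0.02 and 0.08. The other 3 Adamtsl genes were also lower in male PBS hearts: Adamtsl2 with -0.76 (adjusted p 0.216), Adamtsl4 with -0.15 (0.677), and Adamtsl1, well above background on 0 of 4 male PBS arrays, by at least 1.06-fold (0.252). None of the 3 passed. With normexp Adamtsl1 changed sign, to 0.08. The family's median was -0.70, and -0.22 with normexp. Between the same PBS groups 5 of 5 fat cell markers were positive (median 1.06). So were 8 of 9 heart muscle markers (median 0.20) and 5 of 5 smooth muscle markers (median 0.22). By contrast 5 of 5 T cell markers (median -0.62) and 7 of 8 fibroblast markers (median -0.42) were negative. The same held for 7 of 8 cartilage markers (median -0.51) and 8 of 11 airway markers (median -0.17). Of these lists 1 cartilage marker, the positive one (1.63), and 1 airway marker, which was lower, passed the threshold. The part of these lists in the Adamtsl values was not tested.

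**Figure D3:**
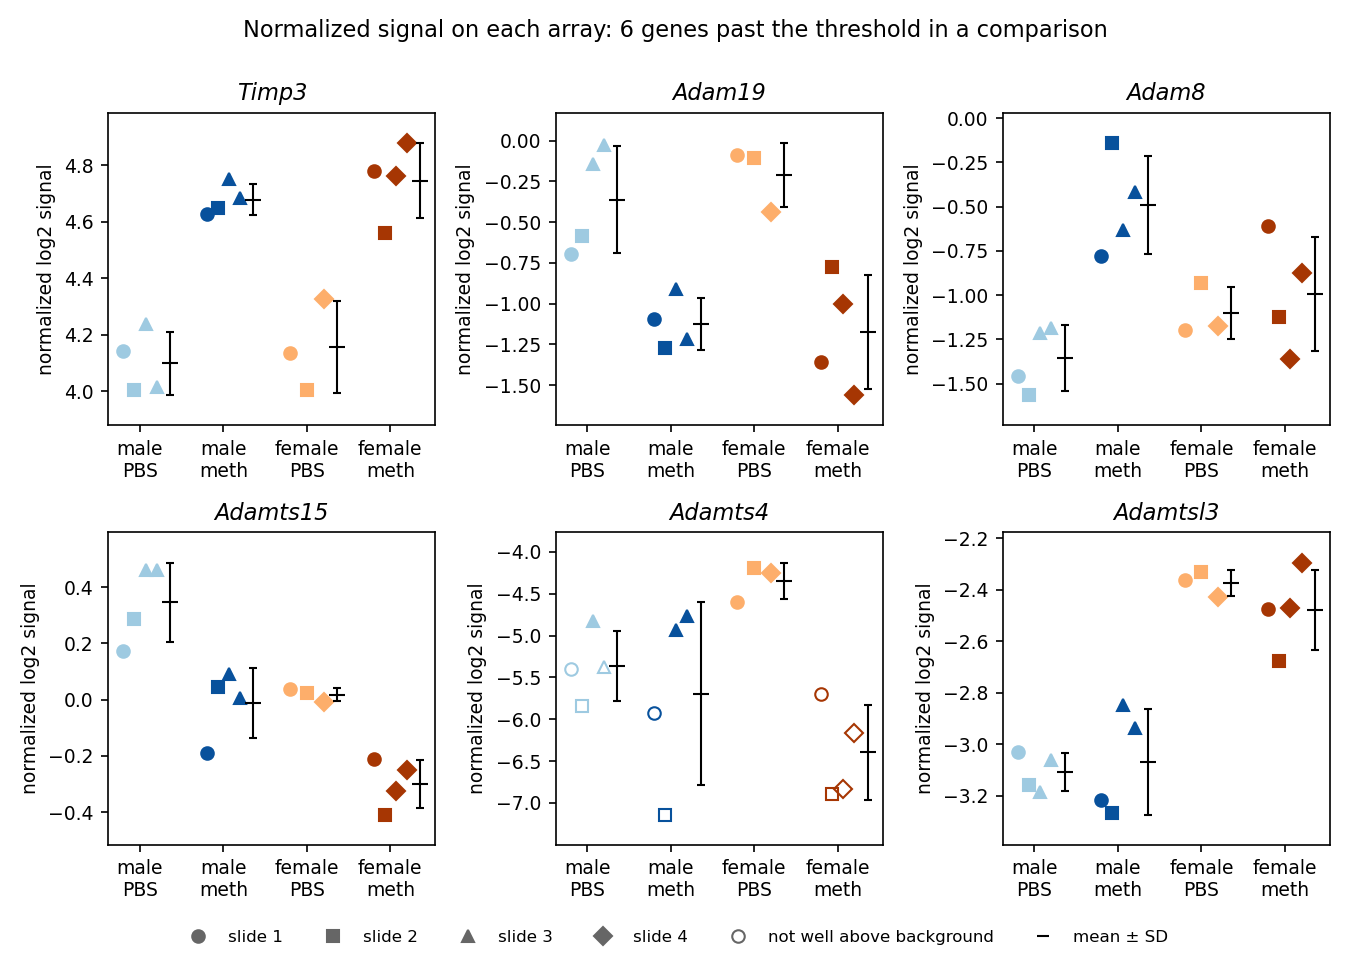
Normalized log2 signal on each array (points, shaped by slide, open where not well above background; vertical axis) in the 4 groups for the 6 genes that passed the threshold in a comparison, with the mean ± SD as black bars. Timp3 meth hearts (4.56 to 4.88) lie above all PBS hearts (4.00 to 4.33), and Adamtsl3 separates the sexes, with males from -3.27 to -2.85 and females from -2.68 to -2.29.

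The Adam genes with broad expression had 9 of 11 tested. Adam19 encodes a sheddase of neuregulin that the developing heart needs for its valves and septum. It read -1.09, -1.27, -0.91 and -1.22 in male meth hearts and -0.69, -0.59, -0.15 and -0.02 in male PBS hearts. The female values ran from -1.56 to -0.77 with meth and were -0.09, -0.11 and -0.44 with PBS. All meth hearts lay below all PBS hearts of their sex. Adam19 fell by 0.96 on the log2 scale in females (SE 0.18, 1.95-fold, adjusted p 0.0314). In males the fold change was -0.76 (SE 0.17, adjusted p 0.051), just short of the threshold. The difference between the sexes was 0.20 (SE 0.24, adjusted p 0.86), and the exact permutation p was 0.0286 in each sex. A second probe of Adam19 passed in both sexes (-0.72 in males and -1.05 in females, adjusted p 0.00901 and 0.00319). The last probe, well above background on 10 arrays, gave -0.37 and -0.75 and did not pass (adjusted p 0.545 and 0.22).

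Within slides Adam19 gave -0.40, -0.69 and -0.98 in males and -1.27, -0.66 and -0.84 in females. A block for the slide let it pass in both sexes (adjusted p 0.0428 and 0.034, with -0.92 in females). With the female pairs as a block it was -0.83 and did not pass (adjusted p 0.116). The female call for Adam19 was lost without female meth replicate 1 (-0.90, adjusted p 0.0727), replicate 3 (-1.02, 0.0547) or replicate 4 (-0.83, 0.0645), without female PBS replicate 1 (-0.90, 0.127) or replicate 2 (-0.91, 0.155), and without male PBS trial 1 replicate 2 (0.0504) or male PBS trial 2 replicate 1 (0.0527). Adam19 missed the threshold in females too with no trial term and with the trial from the source name. It also did so with no filter, with normexp, with the shift by the array median and with each sex fitted alone. Without slide 4 it was -0.97 in females (adjusted p 0.134), and the male value then passed (0.0422). The male value also passed without female meth replicate 2 (0.0318) or replicate 4 (0.0353). Over all limma alternatives the adjusted p of Adam19 ran from 0.0165 to 0.198 in females and from 0.0244 to 0.609 in males, with a negative fold change in each.

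Adam8 encodes a protease of myeloid cells that sheds adhesion molecules. It read -0.78, -0.14, -0.63 and -0.42 in male meth hearts and -1.46, -1.56, -1.21 and -1.18 in male PBS hearts. In females it read -0.61, -1.13, -1.36 and -0.88 with meth and -1.20, -0.93 and -1.18 with PBS. The male groups stood apart, while the female groups overlapped, with 2 meth hearts above the PBS range and 1 below it. Adam8 rose by a log2 fold change of 0.86 in males (SE 0.17, 1.82-fold, adjusted p 0.034, exact permutation p 0.0286). In females the fold change was 0.11 (SE 0.18, adjusted p 0.909, exact permutation p 0.629). The difference between the sexes was 0.75 (SE 0.25) with an adjusted p of 0.453, so it was not shown that the sexes differ.

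On the slides Adam8 gave 0.68, 1.42 and 0.67 in males and 0.59, -0.19 and 0.06 in females, and a block for the slide made the male adjusted p 0.04. The female value was 0.20 without slide 4. The male call for Adam8 was lost without male meth trial 1 replicate 2 (0.70, adjusted p 0.0874), male PBS trial 1 replicate 1 (0.098), male PBS trial 1 replicate 2 (0.112), female PBS replicate 1 (0.0514), male meth trial 2 replicate 1 (0.0518), male meth trial 2 replicate 2 (0.0839), male PBS trial 2 replicate 1 (0.0918) or male PBS trial 2 replicate 2 (0.0804). Without slide 4 it kept its call (0.0465). The male fold change stayed between 0.67 and 1.05 in every alternative, with an adjusted p of 0.0186 to 0.319.

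Adam17, the sheddase of tumour necrosis factor, read 0.46, 0.35, 0.42 and 0.39 in male meth hearts and 0.48, 0.63, 0.82 and 0.80 in male PBS hearts. The male groups came close without overlap, and the fold change was -0.27 (SE 0.07, adjusted p 0.126). In females Adam17 had -0.11 (adjusted p 0.726). Adam15, abundant in vessel cells, had -0.06 in males and 0.04 in females (adjusted p 0.745 and 0.906), and the female sign turned under normexp and quantile scaling. Adam28, known from lymphocytes, had 0.53 in males and -0.10 in females (adjusted p 0.318 and 0.943). Adam12 was well above background on no array by its brightest probe and on 1 array by its other probe, and no probe accession mapped to Adam10, which may still be on the array. The family's median was 0.11 in males and 0.02 in females, the latter -0.01 with quantile scaling.

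The Adam genes known mainly from the germline had 7 of 17 tested, with 0 past the threshold in either sex by limma and 0 at an unadjusted p under 0.05. Adam5, a gene of sperm, was well above background on 0 of 8 male arrays, so no male fold is given. In females it was well above on 3 of 4 meth and 1 of 3 PBS arrays, with 0.63 (adjusted p 0.694). Adam25 was lower in male than in female PBS hearts by -0.67 (adjusted p 0.283), on 1 of 4 and 3 of 3 arrays well above background, and with normexp the value was 0.12. Adam6b had the most negative difference in response between the sexes, -0.56 (adjusted p 0.606). The family's median was 0.06 in males and -0.20 in females, and with normexp these became -0.02 and 0.18.

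**Figure D4:**
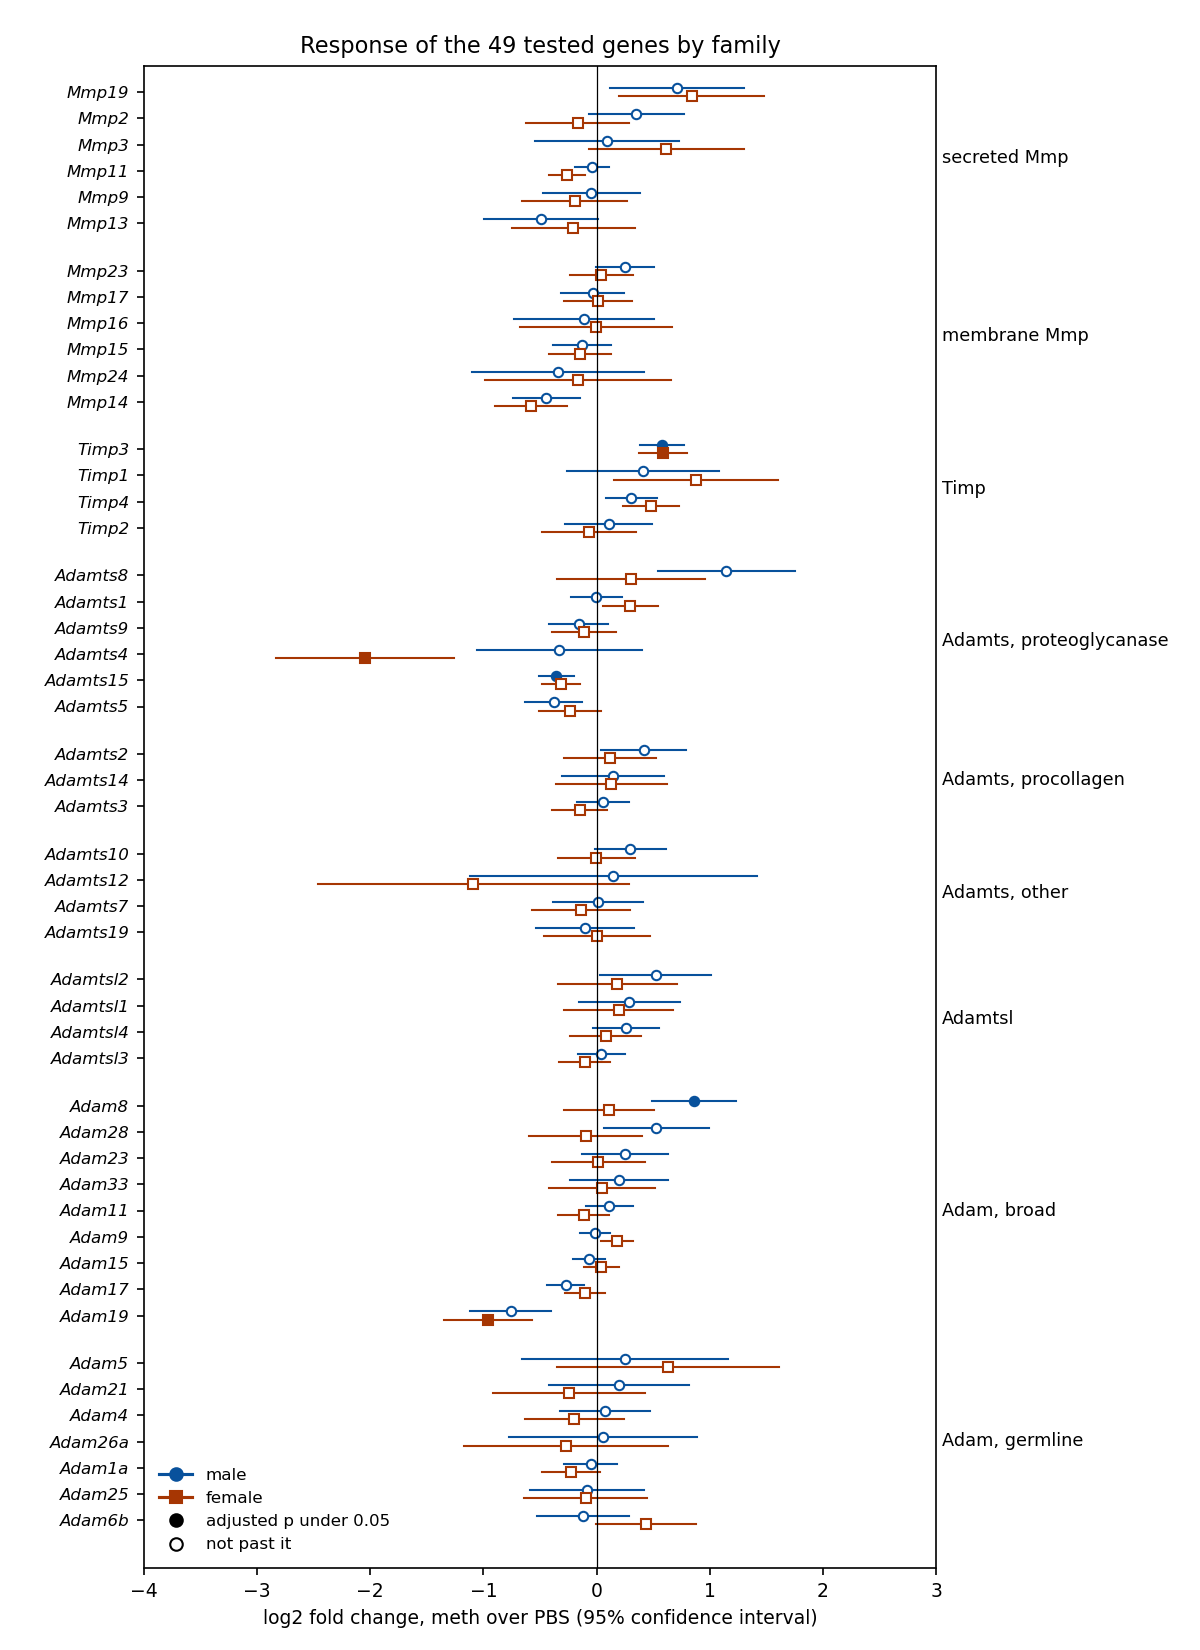
Log2 fold change of meth over PBS with its 95% confidence interval (horizontal axis) for the 49 tested genes by family, in males (blue circles) and females (brown squares), filled where the adjusted p was under 0.05. The 3 filled male points are Timp3, Adam8 and Adamts15, and the 3 filled female points are Timp3, Adam19 and Adamts4.

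The next question was whether the response differed between the sexes. By limma 0 of the 49 genes passed, where 0.155% of all genes passed, and 4 of 49 had an unadjusted p under 0.05, where 7.99% of all genes did. These 4 were Adamts4, Adam8, Mmp11 (0.22, adjusted p 0.573) and Adam9 (-0.19, adjusted p 0.58), and their number was 3 to 6 with an array left out. The count of 0 held in every limma alternative run. The median difference was 0.14 over the 49 genes and -0.04 over all, and it was -0.05 over the 49 with normexp. The share at an unadjusted p is close to the background, so the set gave no sign of its own in this comparison. Mmp11 and Adam9 are named after their values were seen.

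Other genes of the same pathway were described from lists of regulators and substrates. Of 25 regulators of these proteases 23 were tested. Their median log2 fold change was 0.01 in males and 0.02 in females. Tspan15, a membrane partner that brings Adam10 to the cell surface, read -2.60, -2.70, -2.89 and -2.77 in female meth hearts and -2.10, -2.25 and -2.36 in female PBS hearts. The female groups did not overlap. Tspan15 fell by 0.50 on the log2 scale in females (SE 0.10, adjusted p 0.0435). In males it had -0.09 (adjusted p 0.734), and the difference of 0.40 between the sexes did not pass (adjusted p 0.463). Within slides the female values were -0.49, -0.44 and -0.47, and with the slide as a block the adjusted p was 0.0203. With the female pairs as a block Tspan15 was -0.49 and missed the threshold (adjusted p 0.0858), as it did without slide 4 (-0.47, 0.188). The call was also lost without any array other than male meth trial 1 replicate 1 and female meth replicate 1. The adjusted p was 0.0591, 0.0556 and 0.0614 without male meth trial 1 replicate 2, trial 2 replicate 1 and trial 2 replicate 2. It was 0.0707, 0.0518, 0.0684 and 0.0538 without the male PBS arrays in order, and 0.0745, 0.103 and 0.0895 without female meth replicates 2, 3 and 4. Without the female PBS arrays in order it was 0.182, 0.157 and 0.0525. The full range was 0.0148 to 0.963, with the upper end from normexp, where the Tspan15 fold change in females shrank to -0.12.

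Of 24 substrates of these proteases 23 were tested, and 0 passed between meth and PBS in either sex by limma (3 in males and 2 in females at an unadjusted p under 0.05). Their medians were 0.15 in males and 0.06 in females. Fibronectin (Fn1) had 0.76 in males (adjusted p 0.0985), and the collagens Col1a1 and Col3a1 had 0.33 and 0.30 in males and 0.05 and -0.02 in females, none past the threshold. Between males and females given PBS the median was -0.21, and versican (Vcan), a target of several Adamts enzymes, passed with -0.55 (SE 0.10, adjusted p 0.029). Its values were -3.35, -3.14, -2.66 and -2.56 in male PBS hearts and -2.77, -2.71 and -2.62 in female PBS hearts. The low values are the males of trial 1, the groups overlapped, and the exact permutation p was 0.4. The Vcan value depended on the trial term: without it the value was -0.22 (adjusted p 0.725), and with the trial from the source name it was -0.29 (adjusted p 0.301). Within slides it was -0.58 and -0.43, and with the slide as a block -0.52 (adjusted p 0.0405). The call for Vcan was lost without male PBS trial 1 replicate 1 (-0.49, adjusted p 0.163), trial 1 replicate 2 (0.0552) or trial 2 replicate 1 (0.0581), without female PBS replicate 1 (0.0534), replicate 2 (0.105) or replicate 3 (0.0991), and without slide 4 (-0.51, 0.0631). The adjusted p ran from 0.0173 to 1.

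Markers of other cells were read on the same arrays, as summed signals with the 75th percentile of each array set to 1. The airway list, with 12 of 13 genes on the array and 11 tested, summed to 51.0, 163, 33.6 and 62.9 in male meth hearts, with Bpifa1 highest, and to 1.97 to 2.72 in male PBS hearts. It summed to 3.51 to 6.79 in female meth hearts and 4.18 to 5.38 in female PBS hearts. In males 11 of 11 were positive and 9 passed the threshold (median 4.99), and in females 9 of 11 were positive and 1 passed (median 0.26). The cartilage list, with 8 of 12 tested and Comp highest, summed to 7.81, 6.30, 24.0 and 6.80 in male meth hearts, 3.71 to 4.40 in male PBS hearts, 5.04 to 8.44 in female meth hearts and 5.13 to 5.95 in female PBS hearts, with 0 past the threshold between meth and PBS by limma (1 in males and 0 in females at an unadjusted p under 0.05). Its medians were 0.22 and 0.21. Matn1 was well above background on no array. Its high array, male meth trial 2 replicate 1, is the array with the highest Mmp2, Timp1, Adamts2 and Adamtsl2 among male hearts. The airway sum and Adam8 were both highest in male meth trial 1 replicate 2. The part of either list in the male results was not tested.

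Fibroblast markers (8 tested, Dcn highest) had medians of 0.08 and 0.04. Over 7 of them the sums were 208 to 261 in male meth and 199 to 246 in male PBS hearts. In females these sums were 223 to 281 with meth and 216 to 252 with PBS. Macrophage markers (7 of 8 tested, C1qc highest) summed to 24.0 to 28.2 in male meth, 20.6 to 27.3 in male PBS, 24.7 to 34.1 in female meth and 26.2 to 28.8 in female PBS hearts, with medians of 0.17 and 0.08. The 2 high female meth arrays, replicates 1 and 4, are those with high Timp1 and Mmp3, and they also had the highest neutrophil (8.94 and 7.47), cartilage (8.44 and 8.14) and airway (6.13 and 6.79) sums among female meth hearts. Neutrophil markers (5 of 8 tested, S100a9 highest) summed to 1.59 to 6.36, 4.36 to 9.47, 2.15 to 8.94 and 5.43 to 6.57 in the same order, with medians of -0.82 and -0.40, 5 of 5 negative in each sex, and with Ngp and Camp well above background on no array. In male trial 1 these sums were 6.36 and 6.01 with meth and 5.80 and 4.36 with PBS. In male trial 2 they were 1.59 and 2.81 with meth and 9.47 and 7.19 with PBS. Female meth replicates 1 and 4 lay above the female PBS range. Fat cell markers (5 tested, Fabp4 highest) summed to 173 to 299, 156 to 228, 152 to 251 and 137 to 191 in the same order of groups, with medians of 0.75 and 1.05, 5 of 5 positive in each sex, and 2 in males and 3 in females at an unadjusted p under 0.05. Endothelial markers (5 tested, Kdr highest) summed to 23.5 to 26.1, 23.9 to 30.5, 23.3 to 25.5 and 26.9 to 29.8, with medians of -0.05 and -0.15. The female sums did not overlap, lower with meth, and 5 of 5 female fold changes were negative. Smooth muscle markers (5 tested, Acta2 highest) had medians of 0.00 and 0.07, and T cell markers (5 of 7 tested, Cd3e highest, Rag1 well above background on no array) 0.24 and -0.39. None of these 7 lists had a gene past the threshold by limma in either sex, and from 0 to 3 genes of a list had an unadjusted p under 0.05. Their part in the protease results was not tested.

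**Figure D5:**
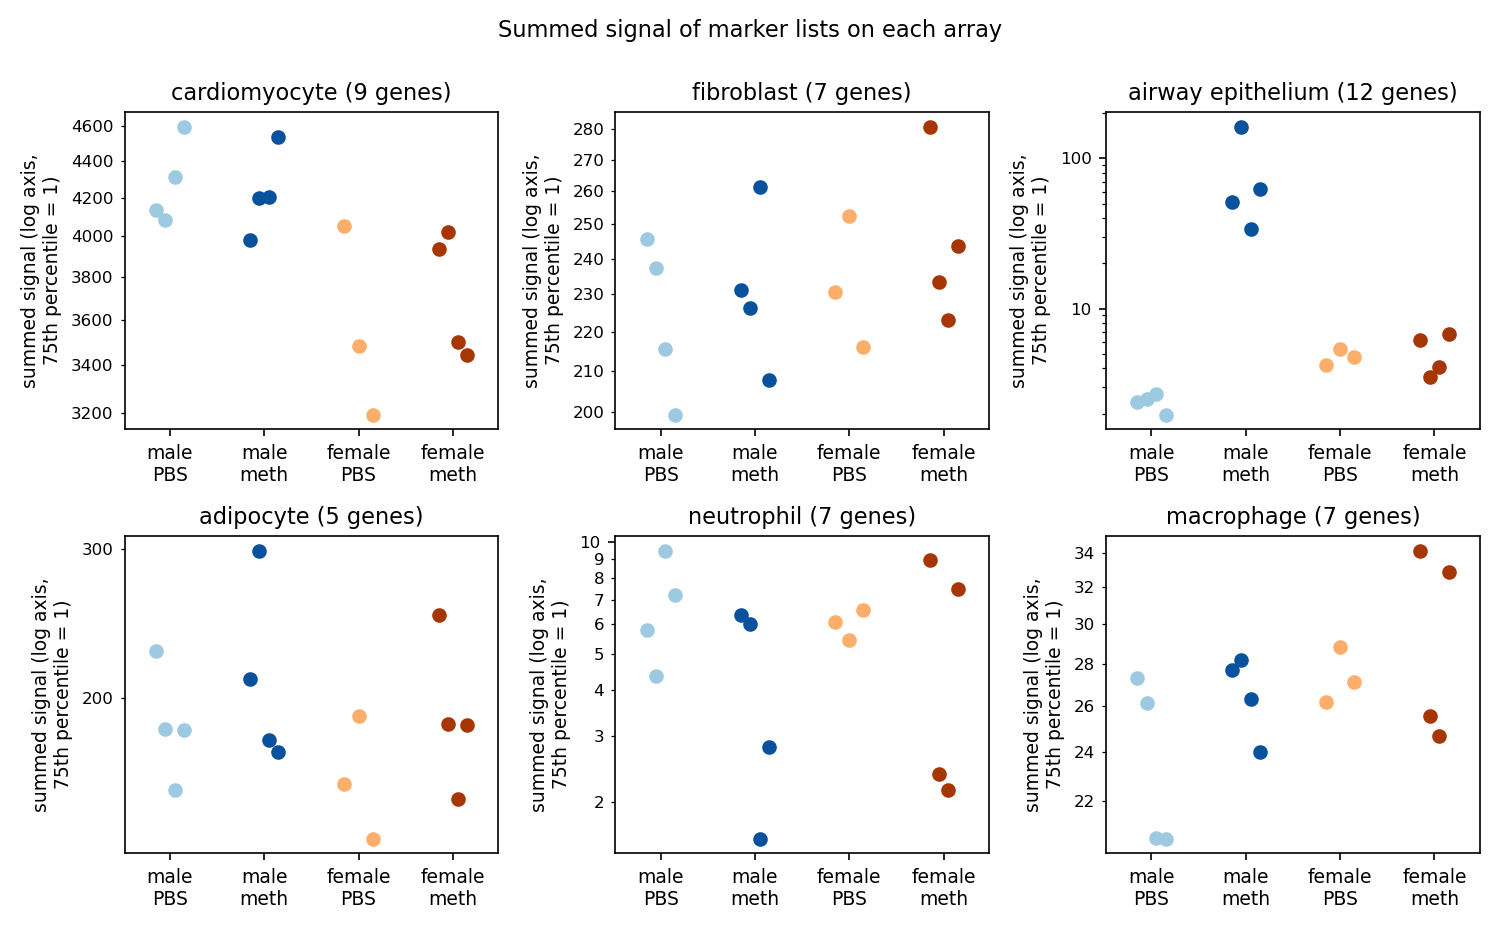
Summed signal of 6 marker lists on each array (points; log vertical axis, 75th percentile of the array set to 1) in the 4 groups. The airway sums of male meth hearts (33.6 to 163) lie above those of male PBS hearts (1.97 to 2.72), while the sums of heart muscle, fibroblast and macrophage markers overlap between meth and PBS.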

How the data were processed

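The intensity values are the processed signals of Agilent Feature Extraction (version 10.5.1.1 by the file headers, 9.1 by the notes) as deposited: background was subtracted and spatial trends were removed within each array, with no scaling between arrays. The log2 values in the value table are, as the authors deposited them, signals shifted to the 75th percentile of each array, and served as an alternative only.

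Here the processed signals were averaged over the spots of a probe, turned to log2 and shifted so that the 75th percentile of the array is 0. The 28358 probes that passed the filter described were tested. A linear model in limma held the 4 groups and the male trial, with moderated t-tests and Benjamini-Hochberg correction over all tested probes. The members and the gene lists (families, regulators, substrates, markers) were chosen with earlier results of these data known.

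Genes are named by a rule fixed before the tests: those past the threshold in any comparison, the 8 members with the largest absolute fold change in each comparison, a fixed list (Mmp2, Mmp3, Mmp9, Mmp14, the Timp genes, Adamts1, 2, 4, 5 and 9, Adam10, 12, 15 and 17), regulators and substrates past the threshold, and marker genes where a marker list is given. Not every gene that this rule picks is reported.

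The replicate numbers come from the sample titles. Over 23808 probes the deviations of the meth and PBS arrays that share a number correlated at 0.30, 0.44 and 0.66 in females and at -0.09 and 0.01 in males. Arrays that share a number share a slide in both sexes. By these correlations only the female numbers are read as pairs in the results. The block on replicate numbers was nonetheless fitted to both sexes at once, and the paired t-test was run in both. Permutation tests were exact. A planned description of protein motifs was not run, since no protein table was used. Tools were R 4.3.3, limma 3.58.1, Python 3.11.15, pandas 2.3.3, scipy 1.17.1 and matplotlib 3.10.9.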

Additional observations from a re-analysis of the deposited data

Results flagged for a closer look

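Among the 32 named genes tested, 96 groups of 4 arrays were searched for an array that lay far from the other 3 (by the Dixon ratio). By chance such a search marks about 1 in 20 groups, and it found 6. Adam5 read -5.74 in male PBS trial 2 replicate 1, with the others at -6.17 to -6.10, and -6.00 in female meth replicate 2, with the others at -5.00 to -4.84. Adam6b read -3.03 in male PBS trial 1 replicate 1, with the others at -3.39 to -3.33. Adamts2 read 3.75 in male meth trial 2 replicate 1, with the others at 2.91 to 3.01. Adamtsl2 read -1.82 in male PBS trial 2 replicate 2, with the others at -1.51 to -1.45, and Mmp2 read 1.40 there, with the others at 1.49 to 1.50. Most of these are small, and their number is near that of chance. The cause was not tested.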

How the results depend on the processing

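Of the fold changes past the threshold, each kept its direction in every limma alternative. Timp3 stayed past the threshold in 28 of 31 alternatives in males and 22 of 29 in females, Adam8 in 17 of 31 and Adamts15 in 15 of 31 in males, Adam19 in 14 of 29 and Adamts4 in 15 of 28 in females, and Adamtsl3 in 26 of 27 between the PBS groups. Tspan15 did in 8 of 29 in females, and Vcan in 14 of 27 between the PBS groups.

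The number of members past the threshold was 3 in males and 3 in females in the main analysis, and 1 between the PBS groups. In males it was 0 with normexp, 1 with no filter, 5 with the slide as a block, 1 with each sex fitted alone, 0 in male trial 1 alone and 0 in male trial 2 alone. With the replicate numbers as a block it was 1 in males (Adam8 then had an adjusted p of 0.1 and Adamts15 of 0.063) and 1 in females. At an unadjusted threshold the paired t-test gave 9 and the unpaired t-test 11 in males (2411 and 2131 of all 14217 genes), and 10 and 10 in females (1265 and 914 of all genes), and after Benjamini-Hochberg correction each gave 0 in either sex, with at most 10 of all genes. In females it was 0 with normexp, 1 with no filter, 1 with no trial term, 1 with the trial taken from the source name, 5 with the slide as a random block, 0 with each sex fitted alone and 0 without slide 4. With single arrays left out it ran from 1 to 4 in males and from 0 to 3 in females. Between the PBS groups it was 0 with normexp and 1 in each other alternative.

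Some fold changes turned sign, all of them short of the threshold. In males Adam15 was 0.0466 in trial 1 alone. Adamts1 was 0.0117 with quantile scaling, 0.11 in trial 2 alone and -0.0621 to 0.0675 with single arrays left out. Adamts4 was 0.25 in trial 2 alone and -0.56 to 0.0284 with single arrays left out. Adamtsl3 was -0.0154 with normexp, -0.15 in trial 1 alone and -0.0208 to 0.10 with single arrays left out. Mmp3 was -0.15 in trial 2 alone and -0.0221 to 0.25 with single arrays left out. Mmp9 was 0.50 in trial 1 alone and -0.18 to 0.0889 with single arrays left out. Tspan15 was 0.0649 in trial 1 alone.

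In females Adam15 was -0.0245 with normexp and -0.0113 with quantile scaling. Adam8 was -0.0191 to 0.23 with single arrays left out. With normexp Adamts12 was 0.0378 and Adamtsl3 was 0.0786. Mmp9 was 0.0128 without slide 4. Timp2 was 0.0341 with the slide as a block, 0.0700 with the replicate pairs as a block, 0.0700 in the paired t-test, 0.12 without slide 4 and -0.23 to 0.0700 with single arrays left out.

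In the difference between the responses Adamts12 was -0.0375 with normexp. Timp3, near 0 throughout, was 0.10 with normexp, 0.12 with quantile scaling, 0.0103 with the trial from the source name, 0.0217 with the slide as a block, 0.00792 with the slide as a random block, 0.0340 with the replicate numbers as a block and -0.0958 to 0.0655 with single arrays left out. Between the PBS groups Adam25 was 0.12 and Adamtsl1 was 0.0801 with normexp. The cause of these shifts was not tested. Most of the other values kept their sign and size: 2171 did, 128 were weaker and 29 stronger.

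The shift by the array median moved the median of all genes to 0.12 between the PBS groups (0.01 in the main analysis), to -0.13 in the difference between the responses (-0.04) and to 0.09 in females (0.03).

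The number of hearts limits these results: 3 or 4 per group can miss modest changes, and calls near the threshold turn on single arrays. Sex and trial are partly bound together, since all females carry 1 trial in their titles, and the labels of female meth replicates 3 and 4 and female PBS replicate 3 disagree on the trial. Slide 4 holds these 3 arrays alone. RNA is not protein, and protease activity also depends on activation and inhibition, which arrays do not measure. Probes near background, as for Adamts4, have uncertain folds. Signal over background decides which members can be judged: those below the filter cannot, nor can those that no probe accession mapped to.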
